A study of Mus musculus with 16 samples.

Results

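Peptide transmitters, calcium-binding proteins and the secreted protein reelin are the genes most used to tell apart classes of interneuron, the neurons whose axons stay within the nervous system and connect other neurons. The 8 genes described here are 4 peptide precursors (Sst, Tac1, Npy and Penk), 3 calcium-binding proteins (Calb1, Calb2 and Pvalb) and Reln. They were found by their symbol in the platform annotation of the array, which gave 8 of 8251 named genes and 12 of 12488 probe sets. Sst, Tac1, Npy, Calb1 and Calb2 had 1 probe set each, Pvalb and Reln had 2, and Penk had 3. Each of the 8 genes had a probe set above the filter on dim probe sets, and the brightest of these was tested. The members and the gene lists named below were chosen with earlier results of these data known.

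The study hybridised total RNA from spinal cords of mice to 16 arrays of 1 colour. The control group held 8 arrays of 4 titled samples, a female and a male at each of 9 and 12 months. The spastic group held 6 arrays of 5 samples. These were 2 titled female at 2 months, 1 titled male at 3+ months, 1 titled male at 3 months and marked sev, and 1 titled Spa-M, female, at 6 months, which had 2 arrays. The B6C3Fe group, named for a hybrid mouse stock, held 2 arrays of 1 sample titled male at 1 month. The spastic mutation is recessive and disrupts Glrb, which encodes the beta subunit of the receptor for the inhibitory transmitter glycine. The titles do not give the genotype of the controls, and no label states whether samples came from separate animals or from pools, so p-values measure only the spread between these samples, which may be technical.

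Glrb checked the group labels. It read 6670 to 10089 on control arrays, 969 to 2218 on spastic arrays and 7758 to 8078 on B6C3Fe arrays. The titled sexes did not hold in the same way: Xist, transcribed from the inactive X chromosome, read 1327 and 1488 on the 2 spastic arrays titled male, against 17.3 to 62.6 on the 6 other arrays titled male, and Eif2s3y, a Y-linked gene, read at most 47.4 on every spastic array against 363 to 545 on those 6. Arrays that share a title correlated at r = 0.933 to 0.977 over genes tested, and arrays of different titles in a group at 0.900 to 0.974. Genes of the Hox clusters, whose trunk members mark spinal cord, summed to 13766 to 15682 on control, 14361 to 16252 on spastic and 13491 to 13759 on B6C3Fe arrays. The Pcx ratio, that of a control probe set at the 3-prime end of Pcx to one at its 5-prime end, rises when RNA or its copying is cut short. It was 2.49 to 6.59 on control arrays, 3.99 to 7.87 on spastic arrays and 3.19 to 3.72 on B6C3Fe arrays, so it moved with the group. The like ratio of Actb set the B6C3Fe arrays apart, at 0.102 and 0.433 against 0.734 to 2.40 on control and 0.679 to 1.64 on spastic arrays. Age moved with the group as well. Every control was at least 9 months old and every other sample at most 6 months old, so age and group cannot be told apart. By Xist and Eif2s3y all spastic arrays read as female, control arrays as titled and B6C3Fe arrays as male. Sex was therefore not balanced in spastic minus control and cannot be told apart from group in spastic minus B6C3Fe.

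In the spinal cord these genes mark overlapping sets of cells. Sst, Tac1 and Calb2 (calretinin) are made largely by excitatory interneurons of the dorsal horn, which receives touch and pain input. Npy is made by inhibitory dorsal horn neurons, and Penk, the precursor of the enkephalins, by both kinds. Calb1 (calbindin) marks Renshaw cells, the inhibitory interneurons that feed back on motor neurons and that use glycine, as well as dorsal neurons. Pvalb (parvalbumin) marks some interneurons and the sensory neurons of muscle, and is also abundant in fast muscle fibres. Reelin guides the placing of migrating neurons in the embryo and is kept by some interneurons in the adult. In whole cord, fewer cells of a type and less RNA per cell cannot be told apart.

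Several neuropeptide genes are controlled by the factor CREB, which binds the cAMP response element, a sequence first described upstream of somatostatin. The stretches just before the start sites of Sst and Tac1, the peptide genes that passed the test below, are therefore shown. Each runs 5′ to 3′ on the gene's strand and ends at the base before the start site, from RefSeq on GRCm38.p6. Capitals mark the full element TGACGTCA in Sst, at chr16:23890845-23890944 on the minus strand, and 1 half-site, CGTCA, in Tac1, at chr6:7554961-7555060 on the plus strand.
Sst: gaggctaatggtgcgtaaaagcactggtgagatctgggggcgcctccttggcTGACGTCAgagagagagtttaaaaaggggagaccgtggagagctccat
Tac1: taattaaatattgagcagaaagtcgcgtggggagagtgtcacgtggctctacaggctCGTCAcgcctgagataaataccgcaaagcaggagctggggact
Counted back from the start site, the first base of the element in Sst is at -48. Because TGACGTCA reads the same on both strands, it also holds the half-site on each strand. Tac1 has half-sites whose first bases are at -43 and -197. The windows searched ran from 250 bases before to 50 after each start site, on both strands, and were at hand for 5 of the 8 members, namely Sst, Tac1, Npy, Pvalb and Reln. Of 32851 such windows, 1.79% held TGACGTCA and 20.8% held TGACG or CGTCA. In Npy, Pvalb and Reln neither sequence of letters was found. Among the 159 tested genes with the full element, 10.7% were called higher and 7.55% lower in spastic cord, beside 10.1% and 9.58% of all 4604 tested genes with a window.

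**Figure D1:**
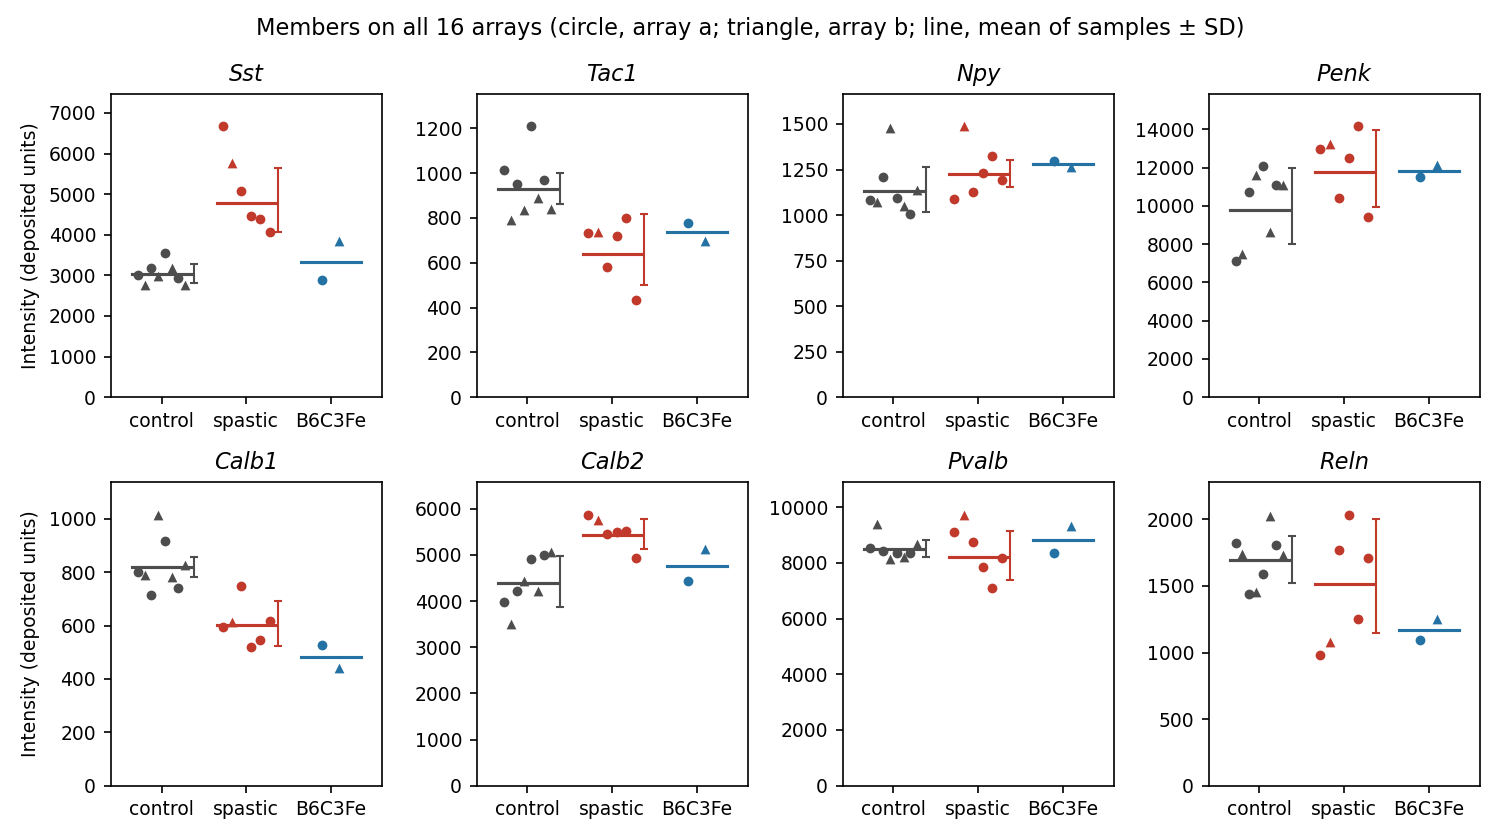
Intensity in deposited units (vertical axes, from 0) of the tested probe set of each of the 8 genes on all 16 arrays, by group; circles are arrays lettered a, triangles arrays lettered b, and horizontal lines the mean of the titled samples, taken on the log2 scale, with bars of 1 SD for control and spastic. All 6 Sst points of the spastic group lie above every other point, and 5 of the 6 spastic points of Tac1 and Calb1 lie below every control.

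Somatostatin and calretinin RNA was higher in spastic than in control cord, and substance P precursor and calbindin RNA was lower. Of the 8 genes, 4 passed the test at an adjusted p under 0.05, 2 of them higher and 2 lower. Sst passed in 16 of 17 other settings, Tac1 in 10, Calb1 in 11 and Calb2 in 7. For all 4, age and group cannot be told apart. Over all 6427 genes tested, 19.3% passed, 9.54% higher and 9.79% lower. The count of members stands above that share, but on 8 genes chosen with earlier results of these data known. It is therefore not a test of the set. Under the other settings given below the count of members ran from 0 to 4. The median difference over the members was 0.03 on the log2 scale, beside -0.02 over all genes tested. Differences below are of mean log2 intensity, tested with limma with Benjamini-Hochberg adjustment over all genes. They are given with their standard error (SE), on 5 spastic and 4 control samples.

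Sst read 2752 at the lowest, 2994 at the median and 3544 at the highest of the 8 control arrays. On the 6 spastic arrays it read 4074, 4768 and 6677 in the same order, and on the B6C3Fe arrays 2881 and 3836. Sst was the one member whose spastic and control arrays did not overlap, which 8.01% of all genes tested also showed. Its 6 spastic arrays also lay above both B6C3Fe arrays, as those of 4.4% of genes lay outside the range of the 10 other arrays. Mean log2 Sst was 12.22 ± 0.24 (SD, n = 5) in spastic and 11.57 ± 0.11 (SD, n = 4) in control samples. The difference was 0.66 (SE 0.12), 1.58-fold, with an adjusted p of 0.00462 (limma) and a 95% interval of 0.39 to 0.93. The highest Sst readings, 6677 and 5762, were the 2 arrays of the Spa-M sample, and without that sample the difference was 0.56 with an adjusted p of 0.0061.

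Those 2 arrays stood apart in another way. Growth hormone (Gh) read 9420 and 9817 on them and prolactin (Prl) 8169 and 8560, while Gh stayed at or below 1922 and Prl at or below 801 on all other arrays. Both are pituitary hormones, and the summed level of 7 pituitary genes was 19759 and 20758 on the Spa-M arrays against 2065 to 4462 on the control arrays. Sst passed the test without that sample, as given above.

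Tac1, the precursor of substance P and neurokinin A, read 791, 921 and 1210 (lowest, median and highest) on control arrays. It read 433, 724 and 799 on spastic arrays, and 779 and 696 on B6C3Fe arrays. In 5 of 6 spastic arrays it lay below every control array, and the exception, the sample titled male at 3+ months, was 799. Mean log2 Tac1 was 9.32 ± 0.36 (SD, n = 5) in spastic and 9.86 ± 0.11 (SD, n = 4) in control samples. It fell by 0.54 (SE 0.17), 1.46-fold, with an adjusted p of 0.0426 (limma) and a 95% interval of -0.91 to -0.18. The 2 samples titled female at 2 months were the lowest, at 433 and 579.

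Substance P in the cord is also carried by sensory fibres whose cell bodies lie in dorsal root ganglia. A list of 15 sensory neuron markers, which includes Tac1, had 7 genes on the array, 4 of them tested, and Tac1 was the 1 called. Its summed level ran from 2935 to 3755 on control, 2275 to 3063 on spastic and 2264 to 2561 on B6C3Fe arrays. Of the other tested markers, Ntrk3, a neurotrophin receptor, was -0.99 (SE 0.40) in spastic minus control, with an adjusted p of 0.105, Gal was -0.15 and Prph 0.00. Ntrk3 was itself dim, at 136 to 566 on control, 43.3 to 296 on spastic and 50.4 to 52.2 on B6C3Fe arrays. Those of its readings under 60.9 were raised to the floor given below. The 3 untested markers were dim. Isl1 read 44.2 to 102 on control and 26.3 to 50.5 on spastic arrays, and Scn9a 10.8 to 92.4 and 3.18 to 28.9. Scn10a read 11.9 to 146 and 13.5 to 172. The part of sensory neuron RNA in the Tac1 difference was not tested.

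The other tested peptides did not pass. Npy read 1007, 1089 and 1479 on control arrays (lowest, median and highest), 1090, 1211 and 1489 on spastic arrays, and 1299 and 1263 on B6C3Fe arrays. The groups overlapped over nearly their whole range, and the log2 difference was 0.11 (SE 0.10), with an interval of -0.11 to 0.34 and an adjusted p of 0.476. Penk, by its brightest probe set (94516_f_at), read 7115, 10902 and 12108 on control arrays, 9442, 12732 and 14179 on spastic arrays, and 11536 and 12148 on B6C3Fe arrays. Here 4 of 6 spastic arrays lay above every control array. The 2 lowest control readings, 7115 and 7463, were those of the 12-month female sample. The Penk difference was 0.27 (SE 0.16), with an interval of -0.08 to 0.61 and an adjusted p of 0.264.

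The 2 other Penk probe sets did not follow the first. One (94517_r_at) read 492 to 939 on control, 418 to 777 on spastic and 295 to 468 on B6C3Fe arrays, a spastic minus control difference of 0.06. The third (161164_r_at) lay under the floor of 60.9 on all 16 arrays and has only a bound. The suffixes f and r mark probe sets that Affymetrix set apart from its standard design, r because some design rules were relaxed.

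Of the calcium-binding proteins, calbindin was lower. Calb1 read 715, 796 and 1016 on control arrays (lowest, median and highest), 520, 605 and 747 on spastic arrays, and 526 and 441 on B6C3Fe arrays. In 5 of 6 spastic arrays Calb1 lay below every control, and the sixth, at 747, was a 2-month sample titled female. Mean log2 Calb1 was 9.23 ± 0.20 (SD, n = 5) in spastic and 9.68 ± 0.06 (SD, n = 4) in control samples. Calb1 fell by 0.44 (SE 0.13), 1.36-fold, with an adjusted p of 0.0293 (limma) and a 95% interval of -0.72 to -0.17. Both B6C3Fe arrays lay below every control array and below 5 of the 6 spastic arrays.

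Calretinin moved the other way. Calb2 read 3504, 4334 and 5061 on control arrays (lowest, median and highest), 4940, 5511 and 5876 on spastic arrays, and 4430 and 5126 on B6C3Fe arrays. In 5 of 6 spastic arrays it lay above every control array, with the sixth, a 2-month sample titled female, at 4940. Mean log2 Calb2 was 12.41 ± 0.09 (SD, n = 5) in spastic and 12.10 ± 0.18 (SD, n = 4) in control samples. The difference was 0.31 (SE 0.10), 1.24-fold, with an adjusted p of 0.0499 (limma) and a 95% interval of 0.09 to 0.53, which is at the edge of the threshold. Among controls Calb2 read 3504 to 4440 on the 12-month arrays and 4228 to 5061 on the 9-month arrays.

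Parvalbumin gave no call, and its 2 probe sets differed. By the brighter one (96719_i_at), Pvalb read 8151, 8403 and 9407 on control arrays, 7092, 8473 and 9733 on spastic arrays, and 8346 and 9335 on B6C3Fe arrays. The spastic range enclosed the control range, and the log2 difference was -0.05 (SE 0.10), with an interval of -0.27 to 0.17 and an adjusted p of 0.768. By the dimmer one (96720_f_at), 5 of 6 spastic arrays lay below every control array, at 502 to 778 against 628 to 1228, except the array marked sev, at 778. When every probe set was tested, its difference was -0.45 (SE 0.15), with an adjusted p of 0.0523 (limma).

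Reln (96591_at) spread widely among spastic arrays. It read 1439, 1737 and 2029 on control arrays (lowest, median and highest), 981, 1482 and 2037 on spastic arrays, and 1091 and 1255 on B6C3Fe arrays. The 2 Spa-M arrays were lowest, at 981 and 1078, and the sev array was highest, at 2037. The SD of log2 Reln was 0.40 over the 5 spastic samples and 0.15 over the 4 control samples. The spastic minus control difference was -0.16 (SE 0.18), with an interval of -0.55 to 0.23 and an adjusted p of 0.572. The second Reln probe set (161231_r_at) was under the filter, at 96.8 to 390 on control and 128 to 250 on spastic arrays.

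The gene whose profile over the 16 arrays was most like Reln was Atp2a1, the calcium pump of fast muscle, with r = 0.85, as a description over arrays that share titled samples. Atp2a1 read 300 and 473 on the Spa-M arrays, where Reln was lowest. The next most alike, Nsun4, is not a muscle gene. The summed level of 20 skeletal muscle genes ran from 12102 to 20679 on control, 6806 to 22959 on spastic and 13512 to 13868 on B6C3Fe arrays. Of the 17 muscle genes tested, 2 were called lower in spastic cord, where 9.79% of all genes were. They were Myh4, a fast myosin, at -3.35, and Actn3, an actinin of fast fibres, at -0.79. The second probe set of Myh4 differed by 0.17. By its tested one, Myh4 read 643 to 1940 on control arrays, but its spastic median was 63.3, near the floor of 60.9. Its lowest spastic reading lay under that floor and was raised to it, so the size of its difference depends on the floor. The spastic median also lay under the filter on dim probe sets, so Myh4 entered the test largely through the control arrays. The part of muscle RNA in the Reln and Pvalb values was not tested.

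**Figure D2:**
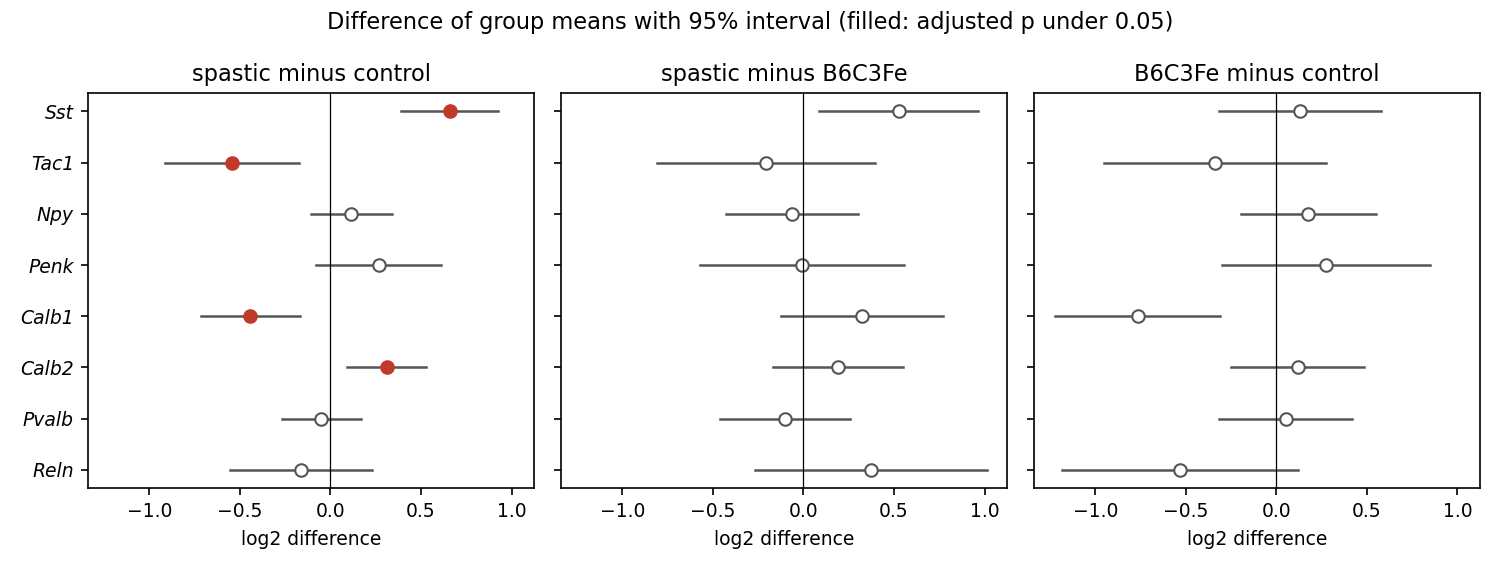
Difference of mean log2 intensity (horizontal axes) of each of the 8 genes in 3 comparisons, with the 95% interval of the limma fit as bars; filled points passed at an adjusted p under 0.05. In spastic minus control Sst and Calb2 lie to the right of 0 and Tac1 and Calb1 to the left, and in the comparisons with B6C3Fe no point is filled.

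The B6C3Fe sample gave a younger reference, though with 1 sample, which was assumed to vary like the others. The titles do not give the stock of the control and spastic samples, so a difference of stock is not known. Its arrays stand apart in the Actb ratio given above, whose part in these comparisons was not tested. The comparisons below share arrays with the first, so the values are set side by side. In spastic minus B6C3Fe, 0 of the 8 members passed, where 2.05% of all genes did. In B6C3Fe minus control, 0 of 8 passed, where 0.669% of all genes did. Without adjustment, 1214 and 1015 of the 6427 genes had a p under 0.05 in these comparisons.

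Sst was 0.53 higher on the log2 scale (SE 0.20) in spastic than in B6C3Fe samples, with an interval of 0.09 to 0.96 and an adjusted p of 0.190. Between B6C3Fe and control samples its difference was 0.13 (SE 0.21), with an interval of -0.31 to 0.58. Calb1 differed more between the references than between spastic and control: it was -0.77 (SE 0.21) in B6C3Fe minus control, with an interval of -1.22 to -0.31 and an adjusted p of 0.102. In spastic minus B6C3Fe its sign turned, at 0.32 (SE 0.21), with an interval of -0.12 to 0.77. Both B6C3Fe arrays lay below all 8 control arrays for Calb1, Tac1 and Reln, 3 of the 8 members, and outside them in 23.3% of all genes tested.

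For Tac1 the B6C3Fe sample lay between the other groups, at -0.21 (SE 0.28) in spastic minus B6C3Fe and -0.34 (SE 0.28) in B6C3Fe minus control. Calb2 also lay between, at 0.19 (SE 0.16) and 0.12 (SE 0.17). Reln was 0.37 (SE 0.29) in spastic minus B6C3Fe and -0.53 (SE 0.30) in B6C3Fe minus control, with adjusted p-values of 0.521 and 0.419. Npy, Penk and Pvalb, by their tested probe sets, had differences of -0.10 to -0.01 in spastic minus B6C3Fe. When every probe set was tested, the dimmer Penk one (94517_r_at) did not follow. It was 0.74 (SE 0.26) in spastic minus B6C3Fe and -0.68 (SE 0.27) in B6C3Fe minus control, with adjusted p-values of 0.158 and 0.242 (limma). By the tested probe sets, the intervals of these 6 members take in 0 in both comparisons. They were widest for Reln, at -1.19 to 0.12 in B6C3Fe minus control, and narrower for Npy, at -0.43 to 0.30, and Pvalb, at -0.46 to 0.26, in spastic minus B6C3Fe.

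**Figure D3:**
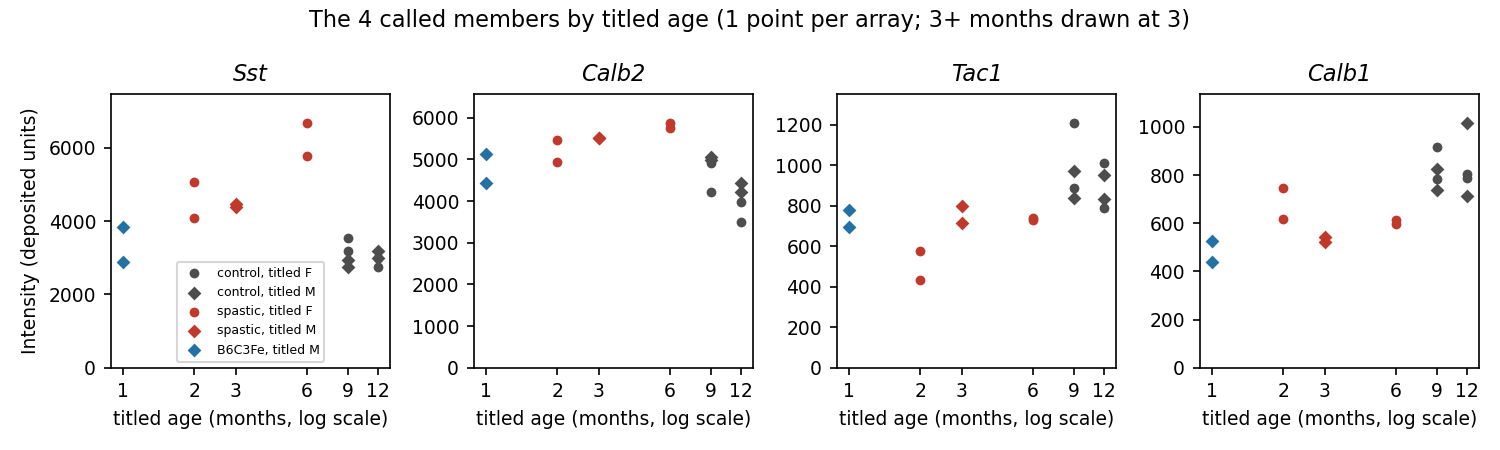
Intensity in deposited units (vertical axes, from 0) of the 4 genes that passed the test, against the titled age in months on a log axis, 1 point per array; colour gives the group and shape the titled sex, and 3+ months is drawn at 3. No age is shared by groups, and the 1-month B6C3Fe points of Calb1, at 441 and 526, lie below 5 of the 6 spastic points.

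Age and sex were compared within the controls, 2 samples a side. Titled age also varied within the spastic group, where its part was not tested. Between 12 and 9 months 0 of the 8 members passed, where 0% of all genes did, with 321 genes at an unadjusted p under 0.05. The largest member difference was in Calb2, at -0.25 (SE 0.13) for 12 minus 9 months, with an interval of -0.55 to 0.05. Between titled female and male controls 0 of 8 passed, where 0.0467% of all genes did, and Penk differed most, at -0.37 (SE 0.22), with an interval of -0.87 to 0.13. When B6C3Fe was counted with the controls and the model held log2 age, Sst was 0.64 higher in spastic samples with an adjusted p of 0.0164. Calb1 then was -0.09 with an adjusted p of 0.748, Tac1 was -0.32 with 0.242 and Calb2 was 0.26 with 0.157, so Sst was the 1 member that passed in that fit. No age is shared by control, spastic and B6C3Fe samples, so the fit relies on an assumed common slope of age. It cannot separate age from group for any member.

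The sample marked sev, a single array, was set against the 4 other spastic samples and assumed to vary like them. Of the 8 members 0 passed, where 0.0156% of all genes did, with 229 genes at an unadjusted p under 0.05. Reln differed most, at 0.54 (SE 0.27), with an interval of -0.06 to 1.13. Calb1 was -0.26 (SE 0.21), and Sst was -0.13 (SE 0.21).

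**Figure D4:**
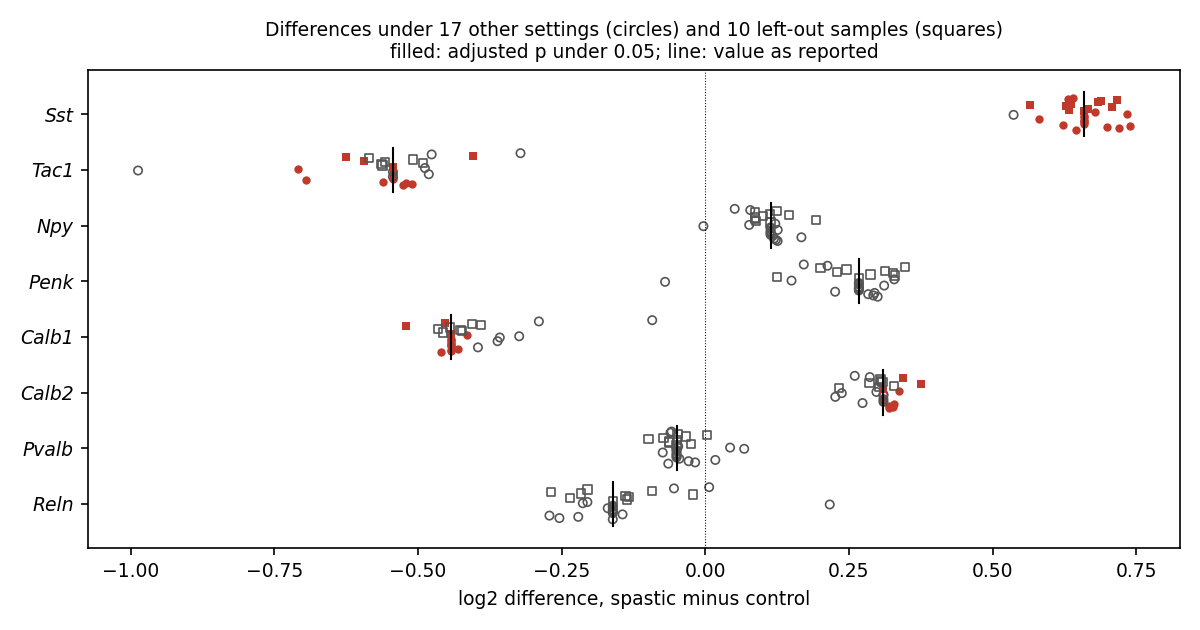
Spastic minus control difference on the log2 scale (horizontal axis) of each of the 8 genes under 17 other settings (circles) and with each of 10 samples left out (squares); filled symbols passed at an adjusted p under 0.05 and the vertical bars give the value as reported. Sst lies at 0.54 or more in every fit and is unfilled in 1, while Tac1, Calb1 and Calb2 keep their sign and are unfilled in many.

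Sst passed in 16 of 17 other settings and in all 10 fits that left out a sample, with differences of 0.54 to 0.74. The setting in which it did not pass held the Pcx ratio as a covariate, with a difference of 0.54 and an adjusted p of 0.160, and 23 genes passed in all in that fit. There Tac1 was -0.99 (SE 0.19) with an adjusted p of 0.0522, Calb1 was -0.36 with 0.350 and Calb2 was 0.24 with 0.439. Tac1 passed in 10 of 17 settings, Calb1 in 11 and Calb2 in 7. With a sample left out, Tac1 did not pass without any 1 of the 4 controls, spastic 2 or spastic 3, with adjusted p-values up to 0.105. Calb1 did not pass without any 1 of the 4 controls or spastic 1, 3 or 4, with values up to 0.0741. Calb2 did not pass without control 1, 2 or 3 or spastic 1, 2, 3 or 4, with values up to 0.148. The direction of these 3 genes was the same in every one of those fits. Without the 2 spastic samples titled male, whose Xist reads like that of females, Sst was 0.73 and Tac1 -0.71, both passing, while Calb1 was -0.32 with an adjusted p of 0.130 and Calb2 0.30 with 0.141.

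Members that moved alike were few. Over the 16 arrays, as a description of arrays that share groups and titled samples, the highest correlations of log2 intensity were between Penk and Calb2, at r = 0.80, and between Sst and Calb2, at r = 0.79. Sst and Tac1 had r = -0.45, and Tac1 and Calb1 0.46. Among all tested genes, those most like Sst were Ptprn, a protein of secretory vesicles, at r = 0.92, and Mab21l2, at 0.92. Those most like Calb2 were Pde1b, a calmodulin-dependent phosphodiesterase, at 0.92, and Rex1bd, at 0.92. Tac1 was most like Psma1, a proteasome subunit, at 0.88, and Smad4, at 0.87. Penk was most like Erp29 at 0.93 and Gga1 at 0.91, and Calb1 most like Cipc at 0.90 and Arid2 at 0.88. For Pvalb these were Selplg at 0.82 and Cox6b2 at 0.81, for Npy Bpnt2 at 0.78 and Cmtm8 at 0.74, and for Reln, after Atp2a1, Nsun4 at 0.83.

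The receptors that these peptides act on were mostly dim. Of 18 peptide receptors, 17 were on the array and 6 were tested, of which 1 fell in spastic cord and 0 rose. That gene was Oprk1, the kappa opioid receptor, whose main peptides are the dynorphins and not the enkephalins of Penk. Oprk1 read 210, 332 and 386 on control arrays (lowest, median and highest), 104, 138 and 166 on spastic arrays, and 203 to 221 on B6C3Fe arrays. The spastic arrays did not overlap with either other group. It fell by 1.25 (SE 0.20), 2.37-fold, with an adjusted p of 0.00249 (limma). All its spastic arrays lay under the filter on dim probe sets, so Oprk1 entered the test through the other groups, where it is higher. The somatostatin receptors Sstr2 and Sstr4 differed by -0.19 and -0.05 and the neuropeptide Y receptor Npy2r by -0.16, none of them past the threshold, with adjusted p-values of 0.478, 0.881 and 0.505.

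Other neuropeptides were listed to 20 genes, of which 8 were tested, and 1 fell and 0 rose, with a median difference of -0.02. The 1 was Nmu, neuromedin U, which read 524 to 802 on control, 353 to 478 on spastic and 507 to 533 on B6C3Fe arrays and fell by 0.57 (SE 0.14), with an adjusted p of 0.0162 (limma). Cck, cholecystokinin, a peptide of dorsal horn excitatory neurons, differed by 0.32, with an adjusted p of 0.0519, and Pdyn, the dynorphin precursor, by 0.04, with 0.867.

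Genes that cut and store peptide precursors were tested for 10 of 12, and 1 rose and 0 fell in spastic minus control, with a median of -0.11. This was Chga, chromogranin A, a protein of dense-core vesicles, at 0.44 (SE 0.13) and an adjusted p of 0.0283 (limma) by its brighter probe set, while its other probe set differed by -0.08. Chga read 1730 to 3718 on control, 3352 to 4236 on spastic and 2019 to 2284 on B6C3Fe arrays. In spastic minus B6C3Fe 2 genes of this list were higher, Chgb at 1.30 and Scg3 at 0.71, with adjusted p-values of 0.0200 and 0.0424. Scg3 was -0.16 in spastic minus control and was called lower in B6C3Fe minus control, at -0.88 with an adjusted p of 0.0368. Chgb was 0.32 and -0.98 in those comparisons, neither called. Both genes were named after their values were seen.

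The reelin pathway had 8 of 12 genes tested, and 1 rose and 0 fell in spastic minus control. This was Itgb1, the beta-1 integrin, at 0.46 (SE 0.11) and an adjusted p of 0.0137 (limma), though its second probe set differed by -0.10 and its B6C3Fe arrays read higher still, at 5733 to 7627, than the spastic arrays at 4283 to 5590. Dab1, the adaptor that carries the reelin signal inside the cell, differed by -0.48 (SE 0.17), with an adjusted p of 0.0638. Fyn, the kinase that acts on Dab1, did not differ beyond its error in spastic minus control, at 0.00 (SE 0.11), but stood apart in B6C3Fe. It was called at -1.07 in spastic minus B6C3Fe and 1.07 in B6C3Fe minus control, with adjusted p-values of 0.0120 and 0.0195, and was named after its values were seen. The reelin receptors Vldlr and Lrp8 were not among the genes tested.

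Other calcium-binding proteins had 13 of 28 genes tested, with 1 higher and 2 lower and a median of 0.04. S100b, made by astrocytes and oligodendrocytes, fell by 0.63 (SE 0.12), with an adjusted p of 0.00462 (limma), from 10546 to 13683 on control arrays to 6722 to 10136 on spastic arrays. Ppp3ca, the catalytic subunit of calcineurin, fell by 0.40, with 0.0311, and S100a10 rose by 0.37, with 0.0166, though a dimmer S100a10 probe set differed by -0.31. Ncs1, named after its value was seen, was called higher in spastic minus B6C3Fe, at 2.23 (SE 0.42). It was 0.32 in spastic minus control and -1.91 in B6C3Fe minus control, neither called. Its mean log2 over all arrays was 8.22, and these differences put its B6C3Fe mean under the filter of 7.62. Ncs1 therefore entered the test through the other groups, where it is higher.

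Of 6 genes of inhibitory transmission 3 were tested, and 1 rose. Slc32a1, the transporter that loads GABA and glycine into vesicles, was 0.64 higher (SE 0.14), with an adjusted p of 0.00813 (limma), at 5060 to 11793 on control, 8844 to 13765 on spastic and 8292 to 9104 on B6C3Fe arrays. Gad1, the enzyme that makes GABA, differed by -0.26, with an adjusted p of 0.119. Of 24 transcription factors of spinal interneurons 9 were tested, with 0 higher and 2 lower and a median of -0.05. Rora, a nuclear receptor of dorsal horn excitatory neurons, fell by 1.17 (SE 0.18), with an adjusted p of 0.00198 (limma), but read 207 to 263 on B6C3Fe arrays, as low as the spastic arrays at 246 to 442. Satb1, a protein that organises chromatin, fell by 0.57 (SE 0.12), with an adjusted p of 0.00878.

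Of the 57 related genes tested over these lists, 10 were called in spastic minus control, 17.5%, which is near the 19.3% of all genes. They were Oprk1, Nmu, Chga, Itgb1, S100b, S100a10, Ppp3ca, Slc32a1, Rora and Satb1. When the Pcx ratio was a covariate 0 of the 10 passed, in a fit where 23 of all genes did. The difference of S100b was -0.67 to -0.54 over all settings, that one included. When B6C3Fe was counted with the controls and the model held log2 age, Nmu, Itgb1, Ppp3ca, Slc32a1 and Rora did not pass, and the difference of Itgb1 was 0.02. With a sample left out, Nmu did not pass without control 2, at an adjusted p of 0.0514 (limma), nor S100a10 without control 1, at 0.0523. Chga did not pass without control 1 or 2 or spastic 1 or 3, with values up to 0.0918, nor Ppp3ca without control 1 or 2 or spastic 4, with values up to 0.0927.

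Levels of general neuron markers overlapped between groups when summed, 55602 to 74568 on control, 57385 to 73639 on spastic and 57358 to 58881 on B6C3Fe arrays. Of these, 3 of the 10 tested were called lower in spastic cord, Map2 at -2.90, Syt1 at -2.87 and Nefl at -1.11, and 0 higher, beside 9.79% lower and 9.54% higher of all genes. Map2 read 41.1 to 1061 on control and 26.7 to 164 on spastic arrays, Syt1 96.2 to 1681 and 32.3 to 159. Nefl read 3202 to 7998 and 1975 to 3280, so each of the 3 overlapped. All spastic readings of Map2 and Syt1 lay under the filter, so these genes entered the test through the other groups. The 3 were not run under the other settings. Markers of cerebellum summed to 3226 to 3919 on control and 3255 to 4180 on spastic arrays, those of forebrain to 684 to 1178 and 612 to 992, and 0 of their 4 and 1 tested genes were called. Schwann cell markers summed to 6232 to 7610 and 4535 to 9334, with 0 of 2 called, and 1 of 14 tested Hox genes, Hoxb5, was called, at 0.40.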

How the data were processed

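The authors deposited a linear intensity for each probe set and array. A mean trimmed by 2% at both ends came to 800.4 to 800.5 on all 16 arrays, so values were taken as scaled and were kept as deposited. The software was not given in the sources used here. Readings under a floor at the 20th percentile, an intensity of 60.9 (log2 5.93), were raised to that floor, which understates differences of dim genes. Precision is limited by how many arrays there are. Tests omitted 66 control probe sets and those whose mean log2 value was at or below the 40th percentile (7.62), and kept the brightest per named gene, leaving 6427. These were 5694 named genes and 733 probe sets without a single symbol, each kept and counted as a gene in the shares given. Symbols came from GEO's platform annotation, checked against RefSeq names of GRCm38.p6, and promoter windows from RefSeq.

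Arrays of the same title, lettered a and b, were averaged to give 10 samples. Group means were compared with limma 3.58.1 in R 4.3.3 (lmFit, eBayes with a trend, 2-sided), all groups sharing 1 estimate of the spread, with Benjamini-Hochberg adjustment over all genes tested. Titled sex was left out of the model because it goes against Xist in 2 samples. The setting that held titled sex used those titles, and no fit used sex as read from Xist. Whether letters pair arrays cannot be told, since among spastic samples only Spa-M has an array lettered b. Deviations from group means correlated at 0.0085 between control and spastic arrays, a value that rests on that sample. In every control sample Sst and Tac1 read higher on array a than on array b, while for the other members the sign varied. Fits were tested on simulated data. Alternatives changed the floor, filter, scaling, probe set choice, covariates, averaging and samples.

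The 8 members, all lists and the tests were chosen with earlier results of these data known. Named were all members, up to 4 called genes of each list by size in spastic minus control, receptors of the member peptides, the 2 genes with the most alike profile per member, and genes that check labels or mark other cells. Cck, Pdyn, Gad1 and Dab1 were added after their values were seen.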

Additional observations from a re-analysis of the deposited data

Results flagged for a closer look

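In 4 of 22 groups of 4 or 5 samples, 1 sample lay further from the others than Dixon's 95% limit allows, where chance gives about 1 group in 20. All 4 were control samples, on the log2 scale of the mean of 2 arrays. Tac1 was high in control 3, the 9-month female, at 10.02 against 9.80 to 9.82 in the other controls. Its array a had the highest Pcx ratio of the controls, 6.59. The control 2 sample, the 12-month male, accounted for the remaining 3. Npy was 10.38 there against 10.06 to 10.07, and Reln was 10.50 by its brighter probe set against 10.79 to 10.81 and 8.45 by its dimmer one against 7.22 to 7.27. The 2 Reln probe sets therefore departed in opposite directions in the same sample. Without control 3 the spastic minus control difference of Tac1 was -0.49, with an adjusted p of 0.105 (limma). Without control 2 those of Npy and Reln were 0.19 and -0.24, with adjusted p-values of 0.227 and 0.455.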

How the results depend on the processing

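The spastic minus control count, 1242 genes with 4 members, was 720 with 2 members from arrays lettered a, 739 with 2 without the 2 spastic samples titled male, 654 with 1 when B6C3Fe joined the controls in a model that held log2 age, and 23 with 0 when the Pcx ratio was a covariate. The members called were 2 with no filter and with eBayes without a trend, and 1 with quantile normalization and with B6C3Fe among the controls. Leaving out each sample gave 712 (without control 1) to 1280 genes and 1 to 4 members. The spastic minus B6C3Fe count of 132 was 760 with every array as its own replicate (1 member, Sst), 368 with the titled sample as a random block, 18 from arrays lettered a, 288 with no filter, 80 without a trend, 19 with the Pcx ratio, 75 without the samples titled male, 211 when array a of the 9-month control female was left out, and 66 to 173 with a sample left out. The B6C3Fe minus control count of 43 was, in the same order, 697 and 335 (1 member each, Calb1), 9, 208, 26, 95 and 75, with 25 under titled sex and 20 to 76 with a sample left out. With the letter as a replicate block, 1721, 622 and 673 genes passed in the 3 comparisons, with 4, 1 and 1 members. Within controls, 12 minus 9 months gave 9 genes with every array as its own replicate and 23 with no filter, and female minus male 25 with no filter, with 0 and 2 to 3 when a sample was left out. For sev, these were 2, 11 and 0 to 3. The settings were run for the members, and in spastic minus control also for the called related genes, Glrb, Myh4 and Actn3. No called value of these genes changed sign, each followed by its tested probe set alone. Other called genes named above, such as Fyn, Chgb, Scg3, Ncs1, Map2, Syt1, Nefl and Hoxb5, were not run under them. The floor limits dim probe sets.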
